A study of Mus musculus with 6 samples.

Results

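The regions described here are 237 stretches of mouse DNA in which cytosine methylation in the CHH context was listed as different between 2 groups of blastocyst-stage embryos, and which touch a promoter but no exon, no untranslated region and no repeat. They were chosen by annotation alone, not by their methylation values: from the authors' table of differentially methylated regions, every CHH region with at least 1 promoter entry and without an exon, 5′ UTR, 3′ UTR or repeat entry was kept, and chromosomes X and Y were left out. They are 237 of 6943 CHH regions and of 9707 regions of all contexts in the table, and 1 of them lies on an unplaced scaffold. Single E4.5 embryos were compared, 3 grown from C57BL/6 fertilised eggs injected with sperm small RNA of normal male mice and 3 from eggs injected with sperm small RNA of males with stress-induced depression. Both groups received RNA at 2 ng/µl, were cultured in M16 medium and then in KSOM at 37 °C, and were collected about 108 h after injection, so every embryo had been injected and no uninjected embryo was analysed here. The table gives a mean level per group and no value per embryo and no read depth. The spread between embryos is therefore unknown, no test between groups could be made, and every level below is the authors' group mean.

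CHH stands for a cytosine followed by A, C or T and then again by A, C or T. In mammals most DNA methylation sits at CpG, where DNMT1 copies it to the new strand at each replication, whereas a CHH site has no mirrored cytosine on the other strand and keeps methylation only through repeated action of the de novo enzymes DNMT3A and DNMT3B. CHH methylation is known from oocytes, pluripotent cells and neurons, and is low in most other cells. The preimplantation embryo passes through the lowest genome-wide methylation of development, and at the blastocyst stage de novo methylation is about to resume. Promoters, the stretches just upstream of transcription starts, are commonly kept free of CpG methylation where they hold a CpG island, and CpG shores are the flanks of such islands.

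To show what such DNA looks like, 4 stretches upstream of gene starts are printed 5′ to 3′ on the gene's strand, from RefSeq on GRCm38.p6 (the mm10 build of the table). Capitals mark cytosines in the CHH context, as C where the cytosine is on the printed strand and as G where it is on the opposite strand. The first is the whole of the region at Gm553 (chr1:52504338-52504482, plus strand, from -157 to -13 relative to the start), the only one of the 237 regions that overlaps a RefSeq promoter window of 250 bases before to 50 after a start. The authors' promoter entry for this region has an identifier but no gene name, and Gm553 is the RefSeq gene whose window it overlaps. Methylation of the region was 4.58% in depressed and 0.65% in normal embryos.
Gm553: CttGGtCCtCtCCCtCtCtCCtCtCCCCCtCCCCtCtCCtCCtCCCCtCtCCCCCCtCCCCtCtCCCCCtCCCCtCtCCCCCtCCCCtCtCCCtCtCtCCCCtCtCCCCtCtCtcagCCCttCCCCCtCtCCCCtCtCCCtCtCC
This run of C and T holds 98 CHH cytosines on the printed strand and 2 on the other, no CpG, and 70.3% G and C. The table counts 98 cytosines in it, the number on the printed strand. The other 3 are the 250 bases before the start of Gsta2 (chr9:78347146-78347395, minus strand), Plpp7 (chr2:32095278-32095527, plus strand) and Lrrtm1 (chr6:77242227-77242476, plus strand). They are shown because each lies next to a higher region, which ends 13, 34 and 60 bp away; they were picked for that nearness after the values were seen.
Gsta2: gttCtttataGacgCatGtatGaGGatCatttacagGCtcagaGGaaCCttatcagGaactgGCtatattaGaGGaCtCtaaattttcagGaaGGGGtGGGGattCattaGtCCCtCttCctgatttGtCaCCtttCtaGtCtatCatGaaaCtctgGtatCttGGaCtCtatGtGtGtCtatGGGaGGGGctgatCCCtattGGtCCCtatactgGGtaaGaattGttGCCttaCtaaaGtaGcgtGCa
Plpp7: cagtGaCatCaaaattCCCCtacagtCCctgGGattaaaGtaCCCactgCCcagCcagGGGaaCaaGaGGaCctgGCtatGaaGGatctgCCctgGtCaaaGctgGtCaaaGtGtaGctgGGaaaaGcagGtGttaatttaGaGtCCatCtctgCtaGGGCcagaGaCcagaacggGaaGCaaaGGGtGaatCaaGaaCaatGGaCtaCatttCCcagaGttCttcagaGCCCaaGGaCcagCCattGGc
Lrrtm1: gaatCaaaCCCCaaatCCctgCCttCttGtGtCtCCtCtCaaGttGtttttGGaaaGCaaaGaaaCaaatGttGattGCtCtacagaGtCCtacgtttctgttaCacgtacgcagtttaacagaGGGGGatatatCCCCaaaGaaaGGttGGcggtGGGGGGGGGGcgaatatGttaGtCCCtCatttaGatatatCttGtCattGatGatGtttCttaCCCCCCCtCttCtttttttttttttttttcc
Counted on both strands, these stretches hold 34.0, 34.8 and 32.4 CHH cytosines per 100 bp. The regions beside them hold 40.4 at Gsta2, 52.8 at Plpp7 and 70.8 at Lrrtm1, by the table's own cytosine counts. Both strands of the Gm553 region hold 69.0 per 100 bp. Both strands of the 250 bases were searched for 4 promoter motifs. The TATA box spelling, TATAAA, is in 12.4% of all such windows. In the Gsta2 stretch it occurs only on the opposite strand, at the end far from the start. The CCAAT box, spelled as named, is in the Gsta2 and Plpp7 stretches and in 33.7% of windows. The GC box, spelled GGGCGG, is in 33.0% of windows, and the E-box spelled CACGTG is in 6.02%; neither is in the printed stretches.

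Depressed and normal embryos stand below for the 2 groups named by the sperm donor's state. In 208 of the 237 regions methylation was higher in the depressed group and in 29 it was lower, which makes 87.8% higher (exact 95% interval 82.9 to 91.6%, over regions). Among all CHH regions outside X and Y 78.9% were listed as higher and 21.1% as lower. At the 208 higher regions the median level was 5.06% in depressed embryos (quartiles 3.54 and 7.50%) against 0.912% in normal embryos (quartiles 0.503 and 1.43%). These are low levels on both sides: 111 of the 208 had under 1% in the normal group and 179 had under 10% in the depressed group. The median difference was 3.78 percentage points, ranging from 2.03 to 28.97 points, and 136 regions (65.4%) differed by under 5 points. The median ratio of depressed to normal was 5.51.

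The 29 lower regions had larger differences. Their median level was 0.887% in depressed embryos (quartiles 0.382 and 24.3%) against 14.4% in normal embryos (quartiles 8.03 and 58.5%), and in 19 of them the depressed group was under 2%. The median ratio of normal to depressed was 7.88. With the comparison limited to differences of at least 10 points, 19 regions were higher and 19 lower. Thus 50.0% were higher, against 30.2% of all CHH regions with such a difference. In CHH regions with an intron entry and no repeat or promoter entry, 163 such regions were higher and 104 lower. Promoter regions with a repeat and no exon or UTR gave 18 and 5. Regions with an exon or 5′ UTR entry and no 3′ UTR entry gave 17 and 268. Most of the 208 higher regions thus differed by less than 10 points.

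**Figure D1:**
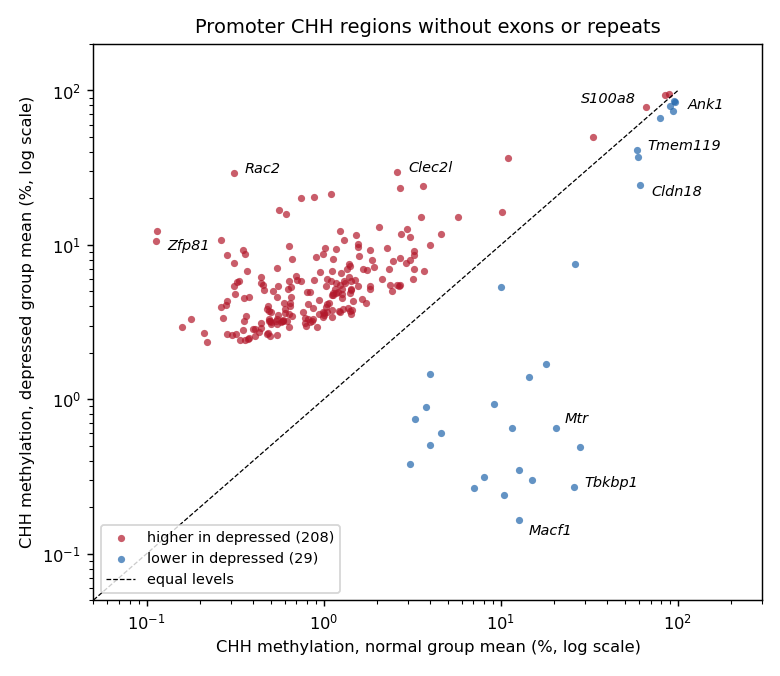
Mean CHH methylation of each of the 237 regions in the depressed group (vertical axis, percent, log scale) against the normal group (horizontal axis, percent, log scale), with the dashed line at equal levels. Most of the 208 higher regions form a cloud around 5.06% against 0.912%, while the 29 lower regions spread from near-zero depressed levels (Macf1, Mtr, Tbkbp1) to levels high in both groups (Ank1).

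The direction at these promoters lay close to that at introns and far from that at exons. Of 1919 CHH regions with an intron entry and no repeat or promoter entry, 90.0% were higher (interval 88.6 to 91.3%). Promoter regions that do touch a repeat were higher in 147 of 155 cases (94.8%). Of 401 regions with an exon or 5′ UTR entry and no 3′ UTR entry, 20.2% were higher (16.4 to 24.5%). That class was not limited by promoter or repeat entries, so it can hold promoter regions that touch an exon. Intervals count regions, which share embryos and can be neighbours, and no test of the difference between classes was made. Where regions were higher, median levels of the depressed against the normal group were of similar size across classes: 4.78% against 0.843% at introns, 5.53% against 0.609% at exons and 4.69% against 0.750% over all CHH regions.

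Higher and lower regions also differed in how densely they hold CHH cytosines. The higher regions had a median of 92 cytosines over 190 bp, or 51.5 cytosines per 100 bp (quartiles 43.4 and 57.8). The lower regions had 66 over 197 bp, or 39.5 per 100 bp, and 11 of the 29 held under 30 per 100 bp against 0 of the 208. For scale, the 31396 RefSeq promoter windows outside X and Y held a median of 32.3 per 100 bp on both strands, and 0.0287% of them reached 50. Among the regions, 115 of the higher (55.3%) and 10 of the lower (34.5%) reached 50. Whether the table counts cytosines of 1 strand or both was not stated, so the windows are a guide only. The same ordering was seen at introns, with 52.4 per 100 bp in higher and 40.0 in lower regions, and at exons, with 43.0 and 19.5.

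**Figure D2:**
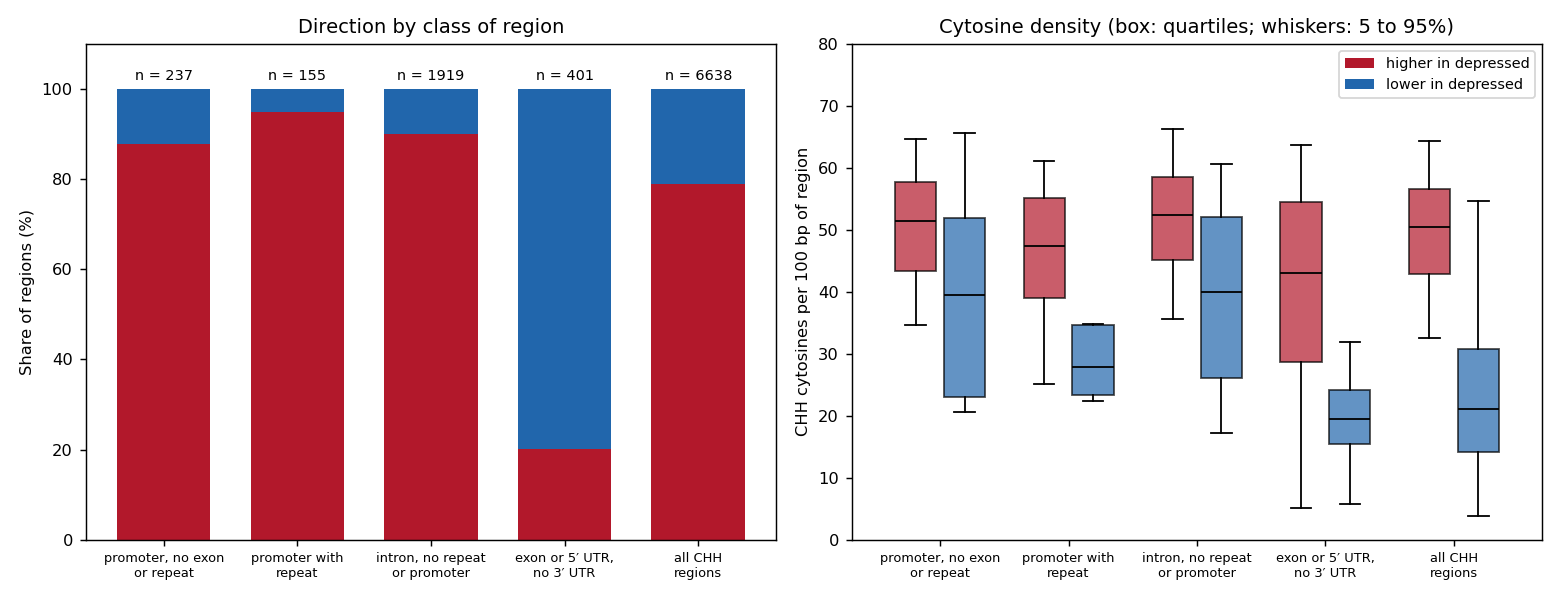
Left, the share of regions higher (red) or lower (blue) in the depressed group, in percent, for the promoter regions without exons or repeats, 3 other classes and all CHH regions outside X and Y. Right, CHH cytosines per 100 bp of region by class and direction. The 237 promoter regions (87.8% higher) lie nearer to introns (90.0%) than to exons (20.2%), and in each class lower regions hold fewer cytosines per 100 bp.

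"Promoter" in the table covers more than the stretch next to a start. For 107 regions the listed gene has a start in the RefSeq table. The centres of 51 (47.7%) lay within 2 kb upstream of it, 30 of them at 1 to 2 kb and 21 at 0.25 to 1 kb, and 0 lay within 0.25 kb upstream. The remaining 130 regions could not be placed this way. They include the region at Gm553 printed above, which does lie that near, from -157 to -13. A further 41 (38.3%) lay over 5 kb downstream of the start, and all 41 also carry an intron entry, as do 112 of the 237 regions. All 49 regions with a RefSeq start and no intron entry lay upstream of it, at a median position of -1592 bp. The intron entries of the 41 and the upstream position of the 49 follow largely from the rule. A region inside a gene but outside its exons and UTRs is annotated as intron. Median levels of the higher regions, depressed against normal, were 4.51% against 0.817% at 1 to 2 kb upstream, 3.80% against 0.785% at 0.25 to 1 kb, and 5.41% against 0.787% over 5 kb inside the gene. Of 200 CHH promoter regions that do touch an exon or UTR, 19 overlap a RefSeq promoter window, against 1 of the 237. Part of each window lies after the start, and the rule removed regions that touch an exon or UTR, so this contrast is largely built in.

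**Figure D3:**
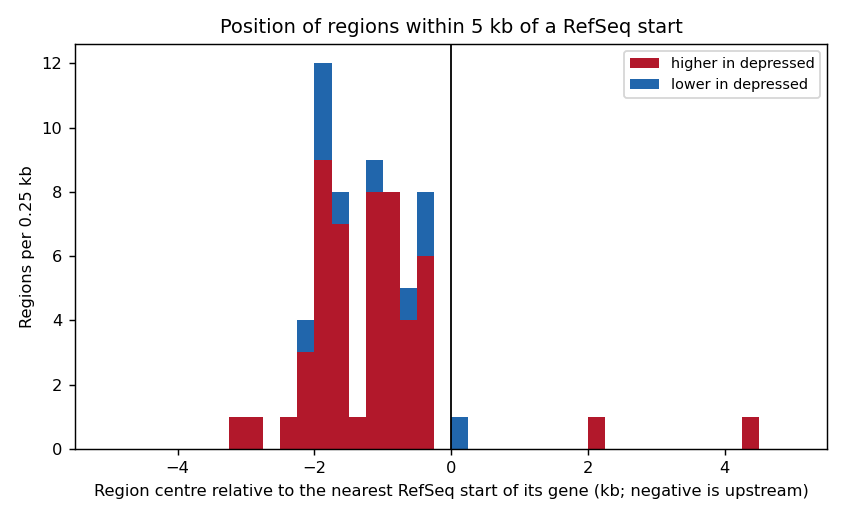
Number of regions per 0.25 kb of distance between the region's centre and the nearest RefSeq start of its listed gene (horizontal axis, kb, negative is upstream), for regions within 5 kb. The regions shown gather between 2 and 0.25 kb upstream, and 0 of their centres lie in the last 0.25 kb before the start. The 130 regions without a RefSeq start of a listed gene are not shown, among them the one next to the Gm553 start.

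The listed genes were spread over many functions. The table gives 239 gene identifiers at the promoters, 144 of them by name, and 147 regions have a named gene. Protein-coding genes with a higher region numbered 114 of 21900 in the RefSeq table (0.521%) and those with a lower region 19 (0.0868%). Genes on X and Y were not dropped from the 21900 or from the gene lists below. Regions there were left out, so these shares are lower than over autosomal genes alone. The region statistic, the authors' score that adds up along a region, was largest among named genes at Cmklr1, the receptor of the chemoattractant chemerin. Its region (chr5:113651489-113652028, 540 bp, 310 cytosines) had 4.19% in depressed and 1.07% in normal embryos. Aldh1a3, which makes retinoic acid from retinaldehyde, had 9.59% against 2.27% (chr7:66420989-66421494, 252 cytosines). Cpe, a carboxypeptidase that trims prohormones and neuropeptides, had 5.21% against 1.83% (chr8:64597911-64598321, 253 cytosines). The regions of Aldh1a3 and Cpe carry an intron entry and lie inside the RefSeq genes, at a distance from the start that could not be given. At Cmklr1, Aldh1a3 and Cpe the difference was a few points over many cytosines.

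The difference was of another kind at Rac2, a small GTPase of blood cells. Its region (chr15:78573317-78573586, 127 cytosines) went from 0.309% in the normal group to 29.3% in the depressed group, the largest difference of the 208. Clec2l, a C-type lectin gene, had 29.6% against 2.60% over 40 cytosines (chr6:38661217-38661286). Dpysl3, a protein of growing axons, had 23.3% against 2.68%, in a region inside the RefSeq gene with an intron entry. Ulk2, a kinase that starts autophagy, had 21.2% against 1.10% (chr11:61804116-61804247), though its region lies 50911 bp inside the RefSeq gene. Gfi1b, a repressor needed for red cell and platelet precursors, had 20.5% against 0.883% (chr2:28622294-28622384). Depressed levels over 20% were seen in 12 higher regions, 7 of them with under 5% in the normal group.

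**Figure D4:**
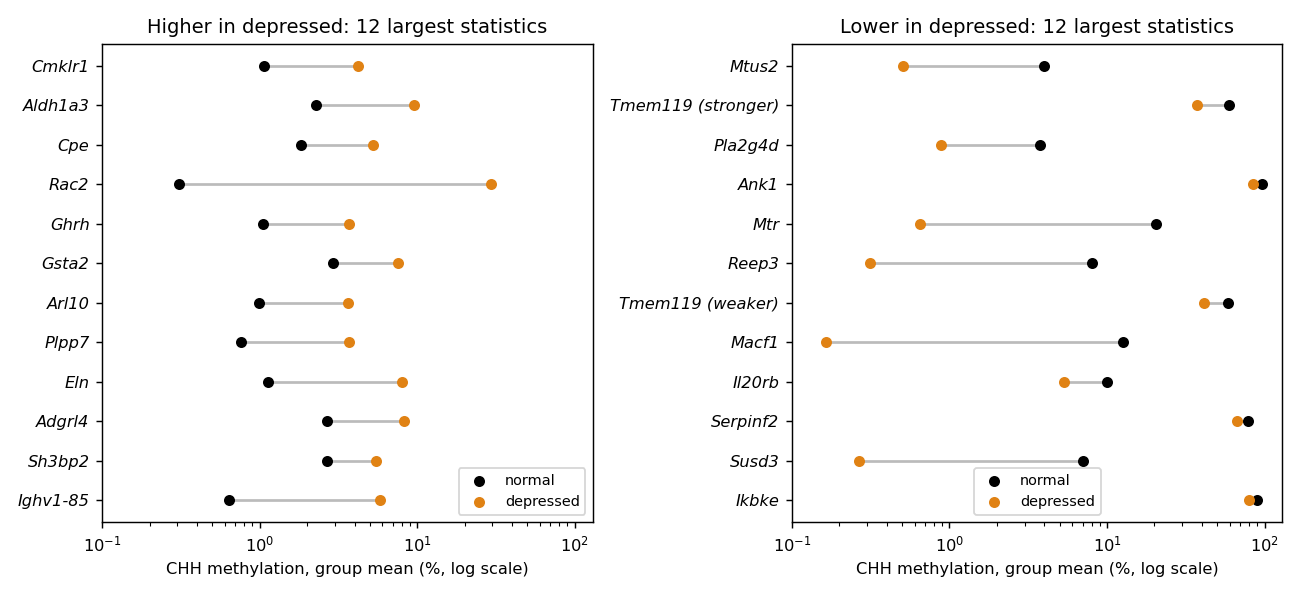
Group means (percent, log scale) of the named regions with the 12 largest statistics in each direction, normal in black and depressed in orange, joined by a line. On the left Rac2 stands out at 29.3% against 0.309%, and on the right regions near 0 in the depressed group (Macf1, Reep3, Susd3) alternate with regions high in both (Ank1, Ikbke, Serpinf2).

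For a view by function, 113 of the named genes were put into 8 groups after their values were seen, so the groups are a description only, and Meis2, Kdm4a, Cd207, C5ar1, the Myom and Myl genes, Pfkfb2 and Lats2 below were picked from them by eye. Over all 237 regions 87.8% were higher, and no group of genes was tested against that share. Among transcription factors and chromatin regulators 12 regions were higher and 2 lower, and the higher ones had a median of 5.85% against 0.969%. Meis2, a homeodomain factor, had 5.86% against 0.333%, 13758 bp inside the RefSeq gene. Kdm4a, a histone lysine demethylase, had 8.61% against 3.21%, 16951 bp inside. Zfp81, a zinc finger protein, had 10.5% against 0.113%, the lowest normal level of the higher regions.

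Among 18 immune genes 15 regions were higher and 3 lower, with a median of 5.46% against 0.693% in the higher ones. In the separate list of 34 immune genes used below, 0 had a higher or lower region. Cd207, the Langerhans cell lectin, had 12.4% against 0.115%, and C5ar1, the receptor of complement fragment C5a, had 9.39% against 1.17%. Ighv1-85, an immunoglobulin heavy chain segment, had 5.79% against 0.638%. The defensin Defb26 had 4.93% against 0.804%.

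Receptors, channels, transporters and adhesion proteins made 12 higher and 2 lower regions. Kcnj10, a potassium channel of glia, had 2.43% against 0.359%, and Kcnn3, a calcium-activated potassium channel, 5.96% against 0.882%, the latter 142100 bp inside the RefSeq gene. Slc2a5, the fructose transporter, had 15.1% against 3.56%, 18423 bp inside the RefSeq gene. Adgrl4, an adhesion receptor of endothelium, had 8.26% against 2.68%, 61755 bp inside. Genes of cytoskeleton, muscle and matrix made 13 higher and 3 lower regions. Elastin (Eln) had 8.06% against 1.13%, and the sarcomere genes Myom3, Myl4 and Myom2 had 8.76, 6.81 and 3.20% against 0.357, 0.369 and 0.582%. The regions of Myom3 and Myl4 lie 39571 and 25274 bp inside the RefSeq genes. That of Myom2 also lies inside its gene, at a distance that could not be given. Krt2, a keratin of the epidermis, had 3.23% against 0.618%.

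Enzymes made 20 higher and 3 lower regions, with a median of 5.11% against 0.862% in the higher ones. Gsta2, a glutathione transferase, had 7.60% against 2.92% over 156 cytosines, and Pfkfb2, which sets the level of the glycolytic activator fructose 2,6-bisphosphate, had 5.01% against 0.519%. Lats2, a kinase of the Hippo pathway, which separates trophectoderm from inner cell mass, had 20.1% against 0.745%, but its region lies 13862 bp outside the RefSeq gene. Membrane traffic genes made 11 higher and 1 lower region at 4.21% against 0.837%. The hormone gene Ghrh, for growth hormone releasing hormone, had 3.69% against 1.04%, and a pair of regions at Sva had 16.3% against 10.2% and 2.60% against 0.545%. All 10 regions at olfactory receptor genes, 1 of them a pseudogene, were higher, from 3.30 to 9.84% against 0.637 to 1.49%. That count stands beside the 87.8% higher among all 237 regions.

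The shares in lists of genes are set beside the 0.521% of all protein-coding genes with a higher region, and in lists this small a single gene decides the share. Of 27 pluripotency and epiblast genes, 19 trophectoderm genes, 29 of DNA methylation and demethylation, 29 of the small RNA pathway, 44 imprinted genes and 39 Hox genes, 0 had one. The lists for glutamate receptors (26 genes), GABA and glycine (29), monoamines (42), axon guidance (61), calcium channels (27), astrocytes and oligodendrocytes (25) and abundant neuronal transcripts (60) held 0. Of 30 stress hormone and neurotrophin genes 1 did (3.33%): Ntrk3, the receptor of neurotrophin-3, with 3.42% against 1.11%, at a region 43271 bp outside the RefSeq gene. Of 51 synaptic adhesion genes 1 did (1.96%), Lrrtm1, with 2.96% against 0.921%, and of 51 potassium and sodium channel genes 2 did (3.92%), Kcnj10 and Kcnn3.

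In the larger families with a higher region the share ranged from 0.257 to 1.75%, and those with over 1 such gene lay near 0.521%. A higher region was found at 9 of 1465 olfactory and vomeronasal receptor genes (0.614%). Those with the largest statistics were Olfr313 at 4.79% against 1.27%, Olfr859 at 5.96% against 1.49%, Olfr821 at 5.14% against 1.15% and Olfr143 at 4.76% against 1.11%, while the largest difference was at Olfr215, named after its value was seen, at 9.84% against 0.637%. It was found at 2 of 400 Zfp genes (0.5%), Zfp81 and Zfp51, the latter with 5.17% against 1.27%. Single higher regions were found at 1 of 57 clustered protocadherins (1.75%; Pcdhga7, 5.88% against 0.709%), 1 of 389 solute carriers (0.257%), 1 of 109 keratin genes (0.917%) and 1 of 73 defensins (1.37%). Of 101 ribosomal protein genes 1 had a lower region, Rpl41. The lists of reference genes (30), Wnt pathway (59), germline (32), immune (34) and tripartite motif genes (70) held 0.

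The lower regions were of 2 kinds. In 22 of the 29 the groups were not both over 30%, and their medians were 0.628% in the depressed group against 11.0% in normal embryos, with 30.6 cytosines per 100 bp. Mtr, which makes methionine from homocysteine and so feeds the supply of methyl groups, had 0.649% against 20.5% (chr13:12259870-12260126). Tbkbp1, an adaptor of the kinase TBK1, had 0.269% against 25.8% (chr11:97149761-97149922), 234 bp after the RefSeq start. Macf1, a linker of actin and microtubules, had 0.164% against 12.7%, the lowest depressed level (chr4:123665247-123665571), 18951 bp inside the RefSeq gene. Med13, of the Mediator complex, had 1.68% against 18.04%. Mas1, a receptor of angiotensin-(1-7), had 0.299% against 14.9%, 15006 bp inside the RefSeq gene. Rpl41 had 0.654% against 11.6%, and Reep3 and Susd3 had 0.312% against 8.03% and 0.265% against 7.06%. Smaller differences were listed at Mtus2 (0.506% against 3.99%), Pla2g4d (0.887% against 3.76%) and Il20rb (5.33% against 10.04%). The regions of Mtus2 and Il20rb lie 36944 and 22919 bp inside the RefSeq genes.

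Part of these lower regions coincided with a region listed in the CHG context, that is, cytosine followed by A, C or T and then G. Of the 29 lower regions 6 (20.7%) overlapped one, by 78 to 223 bp and in the same direction (of all CHG regions 91.3% were lower), and 0 overlapped a CG region. None of the 208 higher regions overlapped a CHG or CG region. At Mtr the CHG level was 1.34% against 24.4%, at Med13 0.101% against 24.6%, and at Tbkbp1 0.525% against 29.7%. At Mas1 it was 0.704% against 19.3%, at Macf1 0.523% against 15.3%, and at Nrd1, named after its value was seen, 0.0427% against 11.5%, beside a CHH level of 0.241% against 10.4%. The Nrd1 region lies 58136 bp inside the RefSeq gene. In all 6 the normal embryos had the higher level in both contexts, and they held 18.6 to 25.3 CHH cytosines per 100 bp. Over all CHH regions 768 of 1398 lower (54.9%) and 8 of 5240 higher (0.153%) overlapped such a region.

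In the remaining 7 lower regions both groups were over 30%. Ank1, the ankyrin of red cells, had 84.4% against 95.8% (chr8:22972873-22973069), Ikbke, a kinase of innate immunity, 79.5% against 90.01%, and Serpinf2, the plasmin inhibitor, 66.7% against 78.9%. Tmem119, known as a microglial marker in brain, had 2 such regions within 563 bp, at 37.0% against 59.6% and 41.1% against 58.5%. Cldn18, a tight junction protein, fell just outside this kind with 24.3% against 61.1%, the largest lower difference (chr9:99719215-99719373). Of the 208 higher regions 4 were over 30% in both groups, among them S100a8, a calcium-binding protein of neutrophils, with 78.0% against 65.9% (named after its value was seen). Over all CHH regions 0.935% of the higher and 7.37% of the lower were of this kind. Of the lower regions alone, 24.1% were of this kind here and 27.1% at introns without repeat or promoter entry. At promoter regions with a repeat it was 2 of 8, and at exon or 5′ UTR regions 0.625%. Levels over 30% lie far above the 0.912% median of the normal group at higher regions. The regions hold at least 66 cytosines each, but the number of reads behind them was not given.

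A CpG shore entry was more frequent among lower regions (11 of 29, 37.9%) than among higher ones (29 of 208, 13.9%). Of the 40 regions with such an entry 72.5% were higher (exact 95% interval 56.1 to 85.4%), against 179 of 197 without one (90.9%, 85.9 to 94.5%). Among all CHH regions with a shore entry 34.8% were higher. A CpG island entry was found at 0 of the higher regions and at 2 of the lower, Macf1 and Med13. The share with an intron entry was 48.1% in higher and 41.4% in lower regions.

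Other regions of the same genes were mostly higher in the CHH context and mostly lower in CHG and CG, whichever way the promoter region went, as over the whole table. Of 123 named genes with a higher region, 33 had other CHH regions in the table, 55 higher and 7 lower. Park2, a ubiquitin ligase gene of great length, had 6 others, all higher, beside 5.46% against 0.451% at its promoter entry, which lies inside the RefSeq gene. Ntrk3 had 4 others, all higher, and Ank3, the ankyrin of the axon initial segment, had 4 higher and 1 lower. In CHG 13 regions at 9 of these genes and in CG 12 regions at 4 genes were listed, all lower. Of 21 genes with a lower region, 6 had other CHH regions, 7 higher and 1 lower. CHG regions were listed at 8 of the 21, 1 higher and 8 lower, and CG regions at 3, 4 in all and lower. CHG regions that overlap a lower region were not left out, so the 6 described above can be among them. Over the whole table outside X and Y, 91.3% of CHG and 99% of CG regions were lower.

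Finally, 90 regions have promoter entries without a gene name, 83 of them higher (92.2%), against 85.0% of the 147 with a name. The largest statistic of all 237 belongs to such a region, chr8:37092555-37093143 (589 bp, 363 cytosines), with 11.8% against 4.61%. The strongest lower one lies at chr7:75783547-75783743, with 0.487% against 28.1%. For 2 regions the RefSeq table places a microRNA hairpin within 1 kb. The hairpin of Mir206 (chr1:20679010-20679082, plus strand), a microRNA of skeletal muscle, starts 356 bp after a region at chr1:20678367-20678653 with 5.07% against 1.42%. That of Mir6540 (chr16:42303362-42303469, minus strand) starts 787 bp after a region with 13.1% against 2.05% at chr16:42304257-42304387. Their mature sequences from RefSeq are given with the seed, bases 2 to 8, in capitals, to show which microRNAs lie beside these regions.
mmu-miR-206-5p: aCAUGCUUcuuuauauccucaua
mmu-miR-206-3p: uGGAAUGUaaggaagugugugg
mmu-miR-6540-3p: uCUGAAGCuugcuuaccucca
The 3 seeds differ from each other, and neither hairpin lies inside its region.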

How the data were processed

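Reads were trimmed with Trim Galore 0.3.3 and handled with Bismark and SAMtools on mm10, per the submitters' processing notes. How regions were called, with which thresholds, coverage minimum, conversion rate and strand, is not stated in the sources used here. Per the file headers, the deposited table gives each region's position, length, number of cytosines, context, both groups' mean methylation as a fraction, their difference and a region statistic, which is a score. It holds 0 columns of values per embryo.

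The 18732 entries were collapsed to 9707 distinct regions by chromosome, start, end and context, fractions were multiplied to percent, and the members were selected by annotation. The smallest absolute statistic of a member was 309 and the smallest difference 2.03 points. Shares carry exact Clopper-Pearson 95% intervals over regions. They do not cover the spread between embryos, and the depth is unknown. Overlap meant at least 1 bp. Starts, promoter windows and microRNAs came from RefSeq on GRCm38.p6; 140 of 144 gene names matched. Since only 1 member overlapped a promoter window, base composition over the members could not be compared.

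Named genes were, in each direction, the 12 with the largest statistic, the 5 with the largest difference, the longest, those with 2 or more members, up to 5 overlapping CHG or CG regions and up to 4 of each of 29 gene lists; predicted genes and genes over 10 kb away were passed over. Some items are not reported here. Genes given otherwise were chosen after their values were seen. The members and lists were chosen with earlier results of these data known. The scripts were tested on simulated data. Python 3.11.15, pandas 2.3.3 and scipy 1.17.1 were used.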

Additional observations from a re-analysis of the deposited data

How the results depend on the processing

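No paired analysis was possible because the table holds group means only, which also means that no embryo could be left out. The share of higher regions was 87.8% and lay between 85.0 and 91.3% when introns, CpG islands and shores, far genes or regions with either group over 30% (chosen after seeing the data, 90.6%) were left out, when X and Y or repeats were allowed or neighbours counted once. It was 86.7 to 89.5% with any 1 chromosome left out. Limited to a difference of at least 10 points, the members numbered 38, 19 higher and 19 lower (50.0% higher), and the higher ones had 20.1% against 1.23%. Limited to a statistic at or above the CHH median they numbered 123, 113 higher and 10 lower (91.9%). Without an intron entry they numbered 125, 108 higher and 17 lower, with repeats allowed 392 with 355 higher, and with the gene within 10 kb 140 with 119 higher. Without CpG island or shore 17 were lower. These counts follow from keeping fewer or more regions. The share of centres within 1 kb of a start was 20.6%, and 8.41% within 500 bp, 48.6% within 2 kb and 30.6% within 1 kb among regions without an intron entry, a choice made after seeing the data. No read depth was given, so the precision of a single region's level cannot be stated.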

Other observations

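The gene 1700012B07Rik, named after its values were seen, had 3 regions within 1039 bp, with 2.36% against 0.219%, 4.40% against 0.938% and 2.94% against 0.158% in the depressed and normal groups. The 3 lie in the same direction and, being neighbours in the same embryos, are not independent. An unnamed gene on chromosome 10 had 2 lower regions within 777 bp, with 84.9% against 94.9% and 73.7% against 93.2%. Chromosome 10 held 4 higher and 5 lower regions, the only autosome with more lower than higher, and 2 of those 5 are this pair. As a share of each autosome's CHH regions, the members were most frequent on chromosome 7 (24 of 432, 5.56%) and least on chromosome 18 (2 of 222, 0.901%). Chromosomes 3, 6, 12, 15, 18 and 19 held 0 lower regions among their 15, 19, 4, 8, 2 and 4 members. Over all 237 regions 12.2% were lower, so 0 is a small departure in counts of this size.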
